A study of Nothobranchius furzeri with 2 samples.

Results

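The complement component genes of the turquoise killifish (*Nothobranchius furzeri*) were followed in female liver, with skeletal muscle as the reference tissue. The 10 symbols C3, C5, C6, C7, C8A, C8B, C8G, C9, CFB and CFI were matched to the gene names of the count table, also where a name carried a copy suffix. The match gave 8 lines of 18529 annotated lines, 1 each for C5, C6, C7, C8A, C8B, C8G, C9 and CFI. C3 and CFB had no line under these names and were not analysed here as such.

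The study removed germ cells from fish of the GRZ-AD strain by injecting an antisense morpholino against *dnd* at the one-cell stage, and control fish received a standard control morpholino. Females were sampled young (1.5 months) and old (3 months). RNA was counted by BRB-seq, a pooled 3′-end method in which each molecule carries a unique molecular identifier. The data used here are 20 female livers and 40 muscles (20 of them female), in groups of 5 libraries, with 1 animal per library: young germ cell–removed (GR), young control, old GR and old control.

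Complement is a cascade of plasma proteins, made largely by hepatocytes, that marks microbes and opens pores in their membranes. C5 is cleaved into C5a, an inflammatory signal, and C5b, which starts the pore. C6, C7, C8 (an alpha, a beta and a gamma chain) and C9 then join C5b to form the membrane attack complex, and CFI, factor I, is a protease that inactivates C3b and C4b and so limits the cascade. These roles are known from mammals.

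Depth differed between the groups. GR livers held 163968 to 253459 counts (young) and 187635 to 256671 (old), against 48679 to 180764 in young control livers and 28062 to 124113 in old control livers. The column names mark the reads of all 10 GR livers as sampled down to a fixed number, and carry no such mark for the control livers. The methods of the study describe this sampling for female liver without setting control fish apart. Vitellogenin genes, which encode egg yolk precursors, took 21.2 to 22.5% of the counts in young control livers and 15 to 23.2% in old control livers, and at most 0.0168% in any GR liver. The median gene tested was higher in GR livers by 0.44 (young) and 0.46 (old) on the log2 scale, so the changes of the members are also given relative to it. This median is not a fixed baseline and depends on the processing. Over the alternatives that kept every library it ran from 0.033 to 0.69 (young) and from 0.058 to 0.83 (old). The 13 hepatocyte marker genes were all detected in every liver group, and at most 3 counts of the 5 skeletal muscle markers fell in any liver library.

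In the female liver, C9, C5, C8B, C8G and CFI were higher after germ cell removal at both ages, and C8A in old fish. Of these, only C9, C5 and C8B passed at both ages under every alternative run. The young C8G, young CFI and old C8A calls were lost under some alternatives. In young fish, 5 of the 6 members tested (C9, C5, C8B, CFI and C8G) were called higher, by 1.90- to 3.63-fold, and C8A was not called. In old fish, 6 of the 7 tested (the same genes and C8A) were called higher, by 1.92- to 3.72-fold, and C7 was not called. Among all genes tested, 7.93% were called higher in young and 7.23% in old GR livers (edgeR's quasi-likelihood test, Benjamini-Hochberg adjusted p below 0.05). Here and below, such shares cover genes down to 10 counts in total and are not matched for level. The members called held 953 (C8G) to 8615 (C9) counts over the 20 female livers. No member was called lower. In bulk samples like these, more cells of a type and more RNA per cell cannot be told apart.

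**Figure D1:**
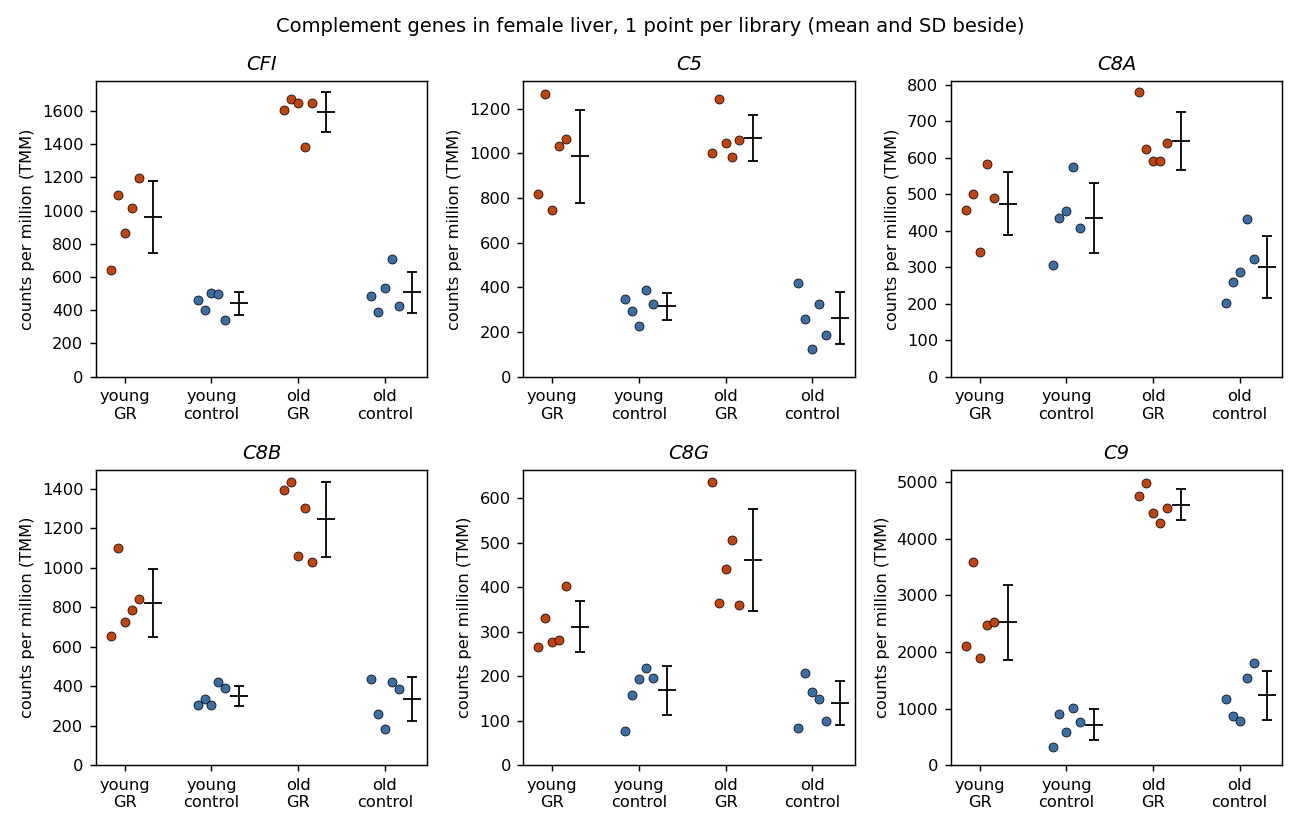
CPM (TMM-scaled library sizes) of 6 complement genes in female liver, 1 point per library, with the mean and SD of each group of 5 beside the points. All 5 GR livers lie above all 5 control livers at both ages for every gene except C8A, whose young groups overlap.

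Summed per library, the members held 0.464 to 0.794% of all counts in young GR livers, against 0.183 to 0.222% in young control livers. In old fish the shares were 0.974 to 1.07% in GR and 0.256 to 0.348% in control livers. The groups did not overlap at either age. With the vitellogenin counts left out of the total, control livers reached 0.236 to 0.282% (young) and 0.333 to 0.409% (old), and both ranges stayed below those of the GR livers, at 0.464 to 0.794% and 0.975 to 1.07%. Vitellogenin took at most 23.2% of the counts of a control liver, so leaving it out could not close these gaps. Nothing is read from this step about the loss of vitellogenin.

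C5 (Nfu_g_1_017066, sgr11:4190787-4221919 of the GRZ genome assembly, plus strand) begins the terminal pathway. Its level was 819, 1266, 746, 1031 and 1065 CPM (counts per 1000000 counts of the library, on TMM-scaled sizes) in young GR livers, against 346, 293, 227, 389 and 326 CPM in young control livers. In old fish it was 1002, 1242, 1046, 984 and 1061 CPM in GR livers, against 420, 258, 123, 325 and 187 CPM in control livers. Every GR library exceeded every control library at both ages. The log2 fold change was 1.71 (SE 0.20, adjusted p = 2.2e-10, edgeR) in young and 1.90 (SE 0.29, adjusted p = 5.4e-09, edgeR) in old fish. Relative to the median gene it was 1.28 and 1.44.

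C9 (Nfu_g_1_010702, sgr02:68649344-68661875, plus strand) encodes the protein that polymerises to line the pore. Young GR livers held 2114, 3593, 1888, 2476 and 2538 CPM, against 326, 904, 584, 1018 and 767 CPM in young control livers. Old GR livers held 4748, 4984, 4457, 4283 and 4543 CPM, against 1176, 878, 781, 1539 and 1803 CPM in old control livers. The lowest GR liver of each age was above the highest control liver of that age. C9 thus gave a log2 fold change of 1.86 (SE 0.19, adjusted p = 1.8e-12, edgeR) in young and 1.76 (SE 0.27, adjusted p = 3.1e-09, edgeR) in old fish, or 1.43 and 1.30 relative to the median gene. The old GR livers were close to each other, with a mean of 4603 ± 271 CPM (SD, n = 5).

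CFI (Nfu_g_1_003463, scaffold00064:49474-61414, plus strand), the regulator in this group, was at 640, 1091, 866, 1016 and 1195 CPM in young GR livers, against 461, 402, 503, 498 and 343 CPM in young control livers. Old GR livers had 1606, 1671, 1650, 1381 and 1650 CPM, against 487, 388, 534, 707 and 423 CPM in old control livers. The groups did not overlap. Its log2 fold change was 1.20 (SE 0.20, adjusted p = 3.0e-06, edgeR) in young fish and 1.51 (SE 0.27, adjusted p = 1.7e-06, edgeR) in old fish, or 0.77 and 1.05 relative to the median gene. With every library thinned to the smallest total compared, the young call was lost (log2 fold change 0.62, adjusted p = 0.071, edgeR; range over its alternatives 2.5e-08 to 0.071).

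The 3 chains of C8 were all called higher in old GR livers, and in young GR livers C8B and C8G were called but C8A was not. C8A (Nfu_g_1_020615, sgr09:54468590-54482436, minus strand) and C8B (Nfu_g_1_020162, sgr09:54454889-54468349, plus strand) lie side by side with their 3′ ends facing each other across 240 bp. C8G (Nfu_g_1_011526, sgr08:47415910-47418839, plus strand) lies on another sequence, 188 bp from an unnamed gene. With such short gaps, reads running past an annotated 3′ end may be counted with the neighbouring gene, which was not tested. In the mammalian complex the alpha and gamma chains are joined to each other, and the beta chain binds C5b, C6 and C7.

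C8B was at 655, 1100, 726, 786 and 840 CPM in young GR livers, against 307, 335, 308, 420 and 392 CPM in young control livers. In old fish it was at 1396, 1434, 1062, 1304 and 1030 CPM in GR livers, against 437, 258, 185, 424 and 386 CPM in control livers. Both ages showed no overlap between GR and control. For C8B the log2 fold change was 1.29 (SE 0.20, adjusted p = 5.9e-07, edgeR) in young and 1.73 (SE 0.28, adjusted p = 6.0e-08, edgeR) in old fish, or 0.86 and 1.27 relative to the median gene.

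C8A, by contrast, was at 456, 502, 342, 582 and 491 CPM in young GR livers, against 307, 435, 454, 575 and 408 CPM in young control livers. These groups overlapped over most of their range. The log2 fold change of 0.18 (SE 0.20, adjusted p = 0.69, edgeR) did not pass the test, and it was -0.26 relative to the median gene. In old fish C8A was at 781, 625, 592, 592 and 640 CPM in GR livers, against 202, 258, 288, 433 and 323 CPM in control livers, with no overlap. There it was called higher, by 0.94 on the log2 scale (SE 0.29, adjusted p = 0.015, edgeR), or 0.48 relative to the median gene. This call was lost with RLE size factors (adjusted p = 0.088, edgeR), with thinned counts (0.63), and without old control library 1 (0.089) or old GR library 1 (0.069). Its adjusted p ran from 0.00067 to 0.63 over the alternatives that kept every library.

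C8G had few counts in control livers, 4 to 28 per library in young and 5 to 18 in old fish. Its level was 266, 332, 276, 281 and 402 CPM in young GR livers, against 76.8, 159, 195, 218 and 196 CPM in young control livers. Old GR livers had 636, 365, 441, 507 and 360 CPM, against 84.0, 207, 164, 150 and 99.5 CPM in old control livers. Neither age showed an overlap. For C8G the log2 fold change was 0.93 (SE 0.25, adjusted p = 0.0057, edgeR) in young and 1.64 (SE 0.32, adjusted p = 1.5e-05, edgeR) in old fish, or 0.49 and 1.18 relative to the median gene. The young call was lost under 5 of 10 alternatives that kept every library (adjusted p 0.00016 to 0.49) and without any 1 of 6 libraries (young control 1, 2, 3 or 5 and young GR 2 or 5, adjusted p up to 0.13).

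**Figure D2:**
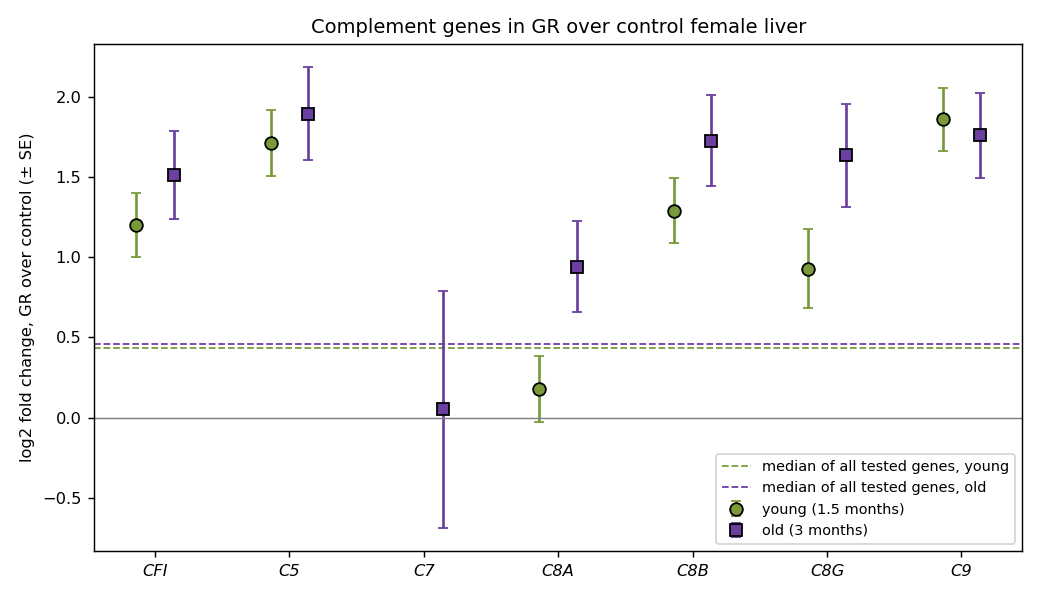
Log2 fold change of GR over control female liver for each tested complement gene (points, with standard errors computed from edgeR's F statistic), young as circles and old as squares. The dashed lines mark the median of all tested genes, 0.44 (young) and 0.46 (old), and only the young C8A and the old C7 value lie below them.

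Of the members tested, 5 of 6 in young fish and 6 of 7 in old fish had every GR library above every control library. Among all genes tested this held for 7.09% in young and 10.5% in old fish. With RLE size factors, DESeq2, filterByExpr or all 4 female liver groups in 1 fit, 4 young members were called, and with thinned counts 3 were (C9, C5 and C8B). In old fish 5 or 6 members were called under every alternative run.

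Since the count ratio of 2 genes within a library does not depend on its scaling, the C8 genes were also compared by their ratios, a comparison chosen after their values were seen. The p-values of the ratios therefore come from the values that prompted the comparison. The adjustment covers only the 6 ratio tests, so these p-values are descriptions. The ratio of C8A to C8B counts was 0.695, 0.456, 0.472, 0.740 and 0.585 in young GR livers, against 1.0, 1.30, 1.47, 1.37 and 1.04 in young control livers. All young GR livers lay below all young control livers. The ratio fell by 1.08 on the log2 scale, to 0.473 times the control value (exact two-sided permutation test, p = 0.0079, the smallest that 252 arrangements allow, adjusted p = 0.024 over 6 tests). The sizes without any 1 library were -1.17 to -0.99. With counts thinned to the smallest total, the difference was -0.68 (exact permutation test, p = 0.087).

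In old fish the C8A to C8B ratio was 0.560, 0.436, 0.558, 0.454 and 0.621 in GR livers, against 0.462, 1.0, 1.56, 1.02 and 0.839 in control livers. One old control liver lay among the GR livers. The difference of -0.80 on the log2 scale did not pass after adjustment (exact permutation test, p = 0.032, adjusted p = 0.063 over 6 tests). With thinned counts it was -1.23 (exact permutation test, p = 0.0079, not adjusted). The ratio of C8A to C8G was also lower in young GR livers, with a geometric mean of 1.52 against 2.69 in young control livers (log2 difference -0.82, exact permutation test, p = 0.0079, adjusted p = 0.024). Thinning took this one to a p of 0.12 (exact permutation test, log2 difference -0.67). In old fish it was 1.42 in GR and 2.18 in control livers (log2 difference -0.61, exact permutation test, adjusted p = 0.11), and -1.03 with thinned counts (exact permutation test, p = 0.087). The C8B to C8G ratio differed by 0.26 (young) and 0.19 (old) on the log2 scale, within the spread between libraries (exact permutation tests, adjusted p = 0.39 and 0.71).

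**Figure D3:**
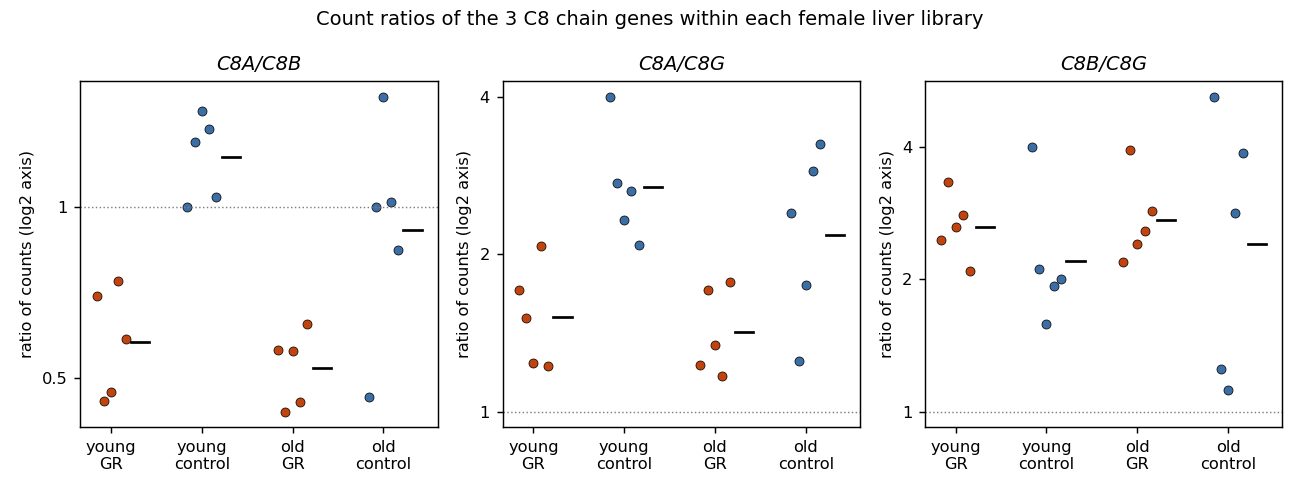
Ratios of the raw counts of the 3 C8 chain genes within each female liver library, on a log2 axis, 1 point per library, with the geometric mean of each group as a line. In young fish the C8A to C8B ratio spans 0.456 to 0.740 in GR livers and 1.0 to 1.47 in control livers.

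In the make-up of the member counts, C8A took 6.37 to 9.41% in young GR livers, against 16.7 to 19.9% in young control livers. Its share was 6.03 to 7.67% in old GR livers, against 7.14 to 13.7% in old control livers, where the ranges overlapped. C9 took 38.8 to 45.6% in young GR livers, against 17.7 to 35.8% in young control livers. In old fish the C9 share was 46.6 to 48.9% in GR and 37.3 to 55.6% in control livers. The shares of the members sum to 100 within a library, so they do not vary freely.

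C6 and C7 were near the limit of detection. C7, listed as copy 1 of 2 (Nfu_g_1_021978, scaffold01299:3415-31030, minus strand), and C6 (Nfu_g_1_021979, scaffold01299:835-5133, plus strand) overlap by 1719 bp on opposite strands. Whether the counting used strand is not given in the sources used here, so reads of the shared stretch may belong to either gene. C7 had 2, 0, 0, 2 and 2 counts in young GR livers, against 1, 0, 0, 0 and 0 in young control livers. In old fish it had 3, 8, 7, 3 and 1 counts in GR livers, against 1, 0, 1, 2 and 2 in control livers. At the old age its log2 fold change was 0.05 (SE 0.74, adjusted p = 0.98, edgeR), or -0.41 relative to the median gene. C6 had 7 counts over all 20 female livers and was not tested.

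The livers were next compared by age. In control livers, 1 of 6 members tested was called higher in old fish, against 0.945% of all genes. It was C9, with means of 1236 ± 434 CPM in old and 720 ± 273 CPM in young control livers (SD, n = 5 each), a ratio of 1.72. The fit, scaled over these libraries alone, gave a log2 fold change of 1.01, or 2.015-fold (SE 0.21, adjusted p = 0.00017, edgeR). The groups overlapped on the CPM scale, which was set over all 20 female livers. The call was lost without young control library 1 (adjusted p = 0.066, edgeR), young control library 3 (0.068) or old control library 5 (0.11), and when every gene with a count was tested (0.086). The other 5 members gave log2 fold changes of -0.27 to 0.47 and did not pass.

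In GR livers, 2 of 7 members tested were called higher in old fish, against 1.84% of all genes. C9 averaged 4603 ± 271 CPM in old and 2522 ± 655 CPM in young GR livers (SD, n = 5 each), with no overlap and a log2 fold change of 0.84 (SE 0.17, adjusted p = 0.0035, edgeR). CFI averaged 1592 ± 120 CPM in old and 962 ± 216 CPM in young GR livers, with a log2 fold change of 0.69 (SE 0.18, adjusted p = 0.024, edgeR). The CFI call was lost without young GR library 1, 3 or 4 or old GR library 2 or 3 (adjusted p up to 0.075, edgeR). C5 had nearly equal means, 1067 ± 103 CPM in old and 985 ± 207 CPM in young GR livers (log2 fold change 0.08, SE 0.17, adjusted p = 0.92, edgeR). C8B was not called (adjusted p = 0.076, edgeR), but it was with plain library sizes (adjusted p = 0.017, edgeR), with genes over 1% of a library left out (0.033), with DESeq2 (0.034) and with filterByExpr (0.012), which also called C8A (0.045).

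Exocrine pancreas markers and some hepatocyte markers moved with age in the same livers. Of 10 pancreas markers tested, 9 were called lower in old control livers, with a median log2 fold change of -1.04 over the list, and 9 in old GR livers, with -1.47. Hepatocyte markers went in both directions. In control livers 3 of 12 tested were called higher and 2 lower in old fish. In GR livers 4 of 13 were called higher and 3 lower. The median over all genes was 0.05 (control) and 0.02 (GR), and 69 of 3385 and 240 of 6694 genes tested were called in either direction. The part of these marker changes in the age results of the members was not tested.

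The age by treatment term asks whether the effect of germ cell removal differed between old and young fish, and is positive where it was larger in old fish. The term was called for 0 of 7 members tested, against 0.109% of all genes in either direction (edgeR). At an unadjusted p under 0.05 there were 2, beside 481 of the 7349 genes tested, and DESeq2 called 0 members. The 2 were C8A, with a difference of 0.96 on the log2 scale (SE 0.35, unadjusted p = 0.0067, adjusted p = 0.59, edgeR), and C8G, with 0.91 (SE 0.41, unadjusted p = 0.027, adjusted p = 0.66, edgeR). For C9 it was 0.10 (SE 0.32). These comparisons by age share their libraries with those by treatment, and the term is built from all 4 groups.

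In muscle the members were nearly absent. All 8 together had 252 counts over 40 muscle libraries, of which C9 held 137, and C6 had none. The 20 female muscles had 96 counts, with 10 in young GR, 2 in young control, 42 in old GR and 42 in old control muscles. The 7 members tested were called higher in female liver than in female muscle, and 20.2% of all genes were (edgeR). The liver and muscle libraries were in separate pools, so the pool and the tissue cannot be told apart. C5, C7, C8A and C8G had fewer than 10 counts in female muscle and entered this test only through their liver counts, so nothing is read from the number called. C5, for example, had 2457 counts over 20 female livers and 18 over all 40 muscles, and CFI had 3158 and 25. Hepatocyte marker genes were likewise present at a low level, 0.0202 to 0.0858% of counts in old GR and 0.00361 to 0.119% in old control female muscles. Their part in the member counts of muscle was not tested. C7A, described as complement component 7a, was outside the rule and was chosen after its values were seen. It had 0 to 3 counts per female liver and 0 to 5 per female muscle, with a liver against muscle log2 fold change of -2.25 (edgeR). It entered that test mostly through muscle counts, so nothing is read from it.

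Only C9 had enough counts for a test of germ cell removal in muscle, at the old age in females. It had 3 to 7 counts per library in old GR female muscles and 1 to 13 in old control female muscles. The log2 fold change was 0.19 (SE 0.52, adjusted p = 0.99, edgeR), against 0.198% of all genes called in either direction. Its unadjusted p was 0.72 by edgeR, and DESeq2 did not call it either.

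**Figure D4:**
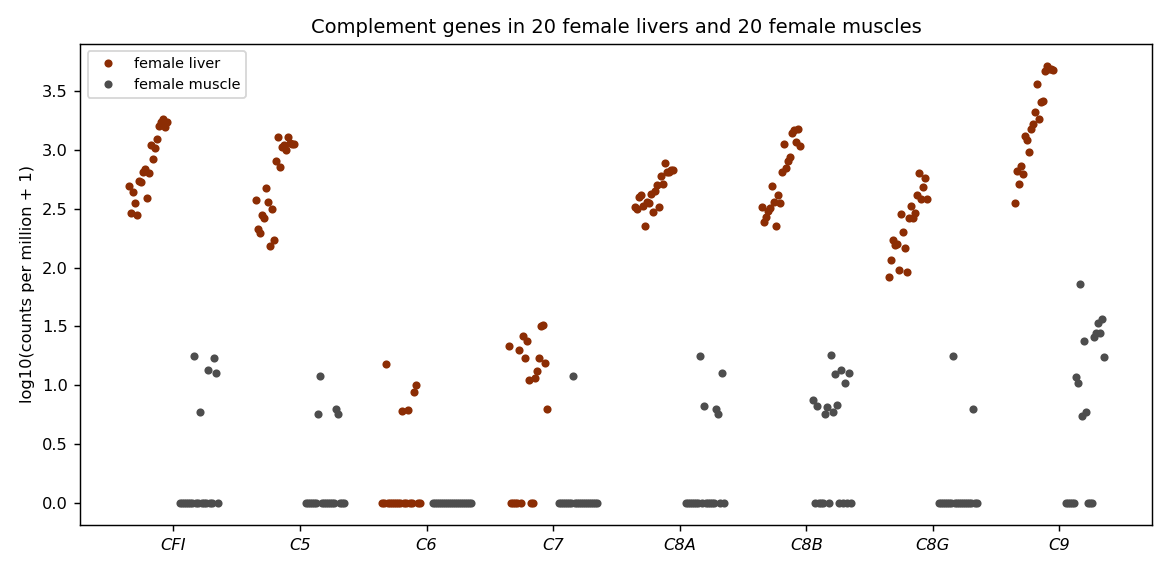
Levels of the 8 complement genes, as log10 of CPM plus 1 on plain library sizes, in 20 female livers (left of each pair) and 20 female muscles (right), 1 point per library. For CFI, C5, C8A, C8B, C8G and C9 every liver lies above every muscle, and C6 and C7 had at most 2 and 8 counts in any liver.

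Of the other genes of the complement system, 26 lines matched a list of 45 symbols, and 18 were tested at each age. In young fish 6 were called higher and 1 lower in GR livers, and in old fish 7 higher and 1 lower. Among all genes tested, 7.93% (young) and 7.23% (old) were called higher, and 525 of 5459 and 510 of 5576 in either direction. Their median log2 fold change was 1.06 (young) and 0.99 (old), and that of the members tested was 1.25 and 1.64, beside 0.44 and 0.46 over all genes. Several of these other lines passed the minimum of 10 counts only through the GR livers, which favours positive fold changes. MASP1, for example, had 26 counts in young GR and 3 in young control livers, and COLEC10 had 15 and 0 in old fish. The same minimum was used for all genes, and nothing is read from the medians. The lists were described this way and not tested as sets. The alternatives were read gene by gene for the members only, so no call of another gene below was checked under them. Relative to the median gene, the calls higher ran from 0.21 (C2 line Nfu_g_1_011104, young) to 1.56 (C2 line Nfu_g_1_011028, old). GR and control livers overlapped for the old MASP2, young Nfu_g_1_011104 and old Nfu_g_1_005173 calls.

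C1R, a protease of the classical pathway, was higher by 1.1 on the log2 scale in young and by 0.97 in old GR livers (adjusted p = 0.0032 and 0.021, edgeR). MASP2, the protease of the lectin pathway, was higher by 1.25 in old GR livers (adjusted p = 0.036, edgeR), with 1.02 in young GR livers (adjusted p = 0.12, edgeR).

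Genes annotated as C2, the protease of the C3 convertase, went in both directions. The line Nfu_g_1_011028 was higher in GR livers by 1.32 (young) and 2.02 (old), and its neighbour Nfu_g_1_011104 by 0.65 and 1.09 on the log2 scale (adjusted p up to 0.035, edgeR). A line on another sequence, Nfu_g_1_017950, was called higher in old GR livers, by 1.02 (adjusted p = 0.012, edgeR), with 0.40 in young GR livers (adjusted p = 0.35, edgeR). A further C2 line, Nfu_g_1_005173, was lower in GR livers, by -0.96 in young (SE 0.20, adjusted p = 0.00018, edgeR) and -0.91 in old fish (SE 0.26, adjusted p = 0.0091, edgeR). Its levels were 563, 576, 425, 730 and 728 CPM in young GR livers, against 1517, 971, 1686, 925 and 1110 CPM in young control livers. These C2 lines are related sequences, and reads may be split between them.

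Among the inhibitors, SERPING1, the C1 inhibitor, was higher in GR livers by 0.91 (young) and 1.12 (old) on the log2 scale (adjusted p = 0.00064 and 0.0011, edgeR). VTNA, a vitronectin that keeps the attack complex out of membranes, was higher by 1.35 and 1.41 (adjusted p = 1.6e-05 and 0.00040, edgeR). VTNB was higher in young GR livers by 0.74 (adjusted p = 0.0029, edgeR), with 0.68 in old GR livers (adjusted p = 0.097, edgeR). ITGB2, the beta chain of the complement receptors of leukocytes, had log2 fold changes of 0.22 and 0.03 and was not called. VTNA, ITGB2 and the C2 line Nfu_g_1_017950 each overlap a gene on the other strand, whose reads may be counted with theirs.

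**Figure D5:**
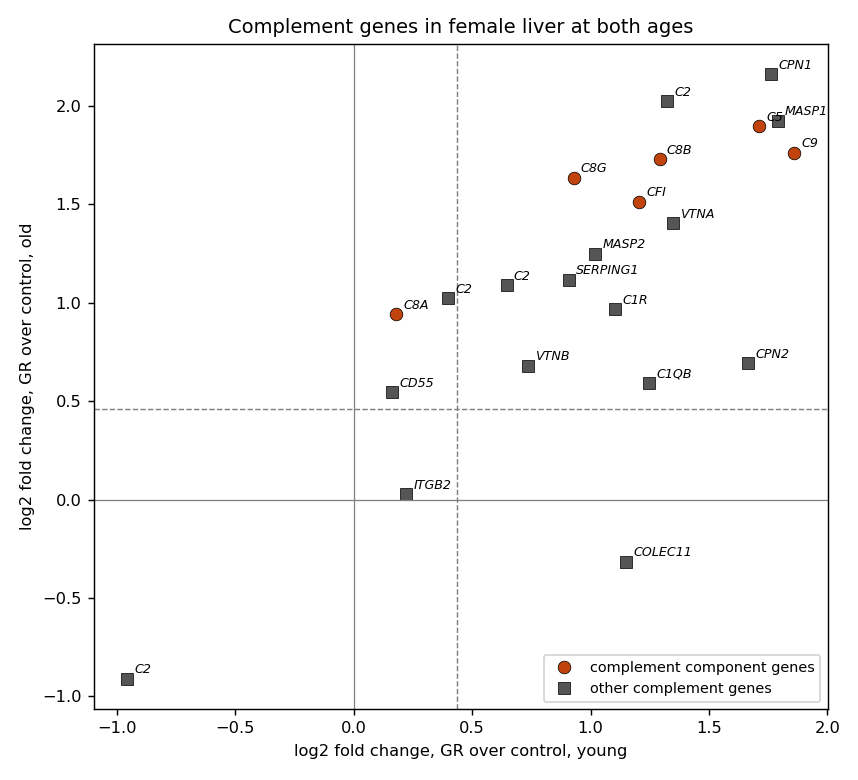
Log2 fold change of GR over control in young (x axis) and old female liver (y axis) for 6 complement component genes (circles) and 16 other complement genes tested at both ages (squares), leaving out 1 gene with a group at 0. Dashed lines mark the median of all tested genes, and the 1 square in the lower left is the C2 line that was lower at both ages.

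A line described as a C3-1 precursor (OLA.3945, Nfu_g_1_015843) does not carry the symbol C3, was outside the rule and was chosen after its values were seen. It had 12510, 14050, 7875, 12330 and 13750 CPM in young GR livers, against 3091, 5282, 4167, 6638 and 4292 CPM in young control livers. In old fish it had 22650, 22930, 19370, 19930 and 16130 CPM in GR livers, against 4840, 2970, 4108, 6291 and 5684 CPM in control livers. The GR livers lay above the control livers at both ages, with log2 fold changes of 1.45 (SE 0.17, adjusted p = 1.5e-10, edgeR) and 1.96 (SE 0.27, adjusted p = 5.2e-11, edgeR). This gene overlaps 2 unnamed genes. The CFHR3 lines (factor H-related 3) were chosen in the same way. Nfu_g_1_002604 was higher in GR livers by 1.14 (young) and 1.20 (old) on the log2 scale (adjusted p = 0.00076 and 0.0026, edgeR). Nfu_g_1_004947 was higher by 1.66 in old GR livers (adjusted p = 0.0027, edgeR), with 0.82 in young GR livers (adjusted p = 0.35, edgeR).

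Hepatocyte markers were higher beside the members. The 13 hepatocyte markers took 11.7 to 15.2% of counts in young GR livers, against 2.74 to 3.40% in young control livers, and 11.9 to 13.6% in old GR livers, against 2.66 to 4.15% in old control livers. Of the 13 tested, 11 were called higher in young and 9 in old GR livers, and none was called lower. Among all genes tested, 7.93% (young) and 7.23% (old) were called higher, which is the background for each marker list here. The 11 exocrine pancreas markers took 2.01 to 8.24% in young GR livers, against 1.43 to 2.84% in young control livers, and 0.792 to 3.20% in old GR livers, against 0.575 to 1.63% in old control livers. Of the 10 tested, 9 were called higher in young and 1 in old GR livers. Leukocyte markers (11 lines) took 0.00305 to 0.0141% in young GR livers, against 0 to 0.00553% in young control livers, and 0.00266 to 0.0170% in old GR livers, against 0 to 0.00564% in old control livers. The ranges overlapped at both ages, and 1 of 5 tested was called higher in young and 0 of 4 in old GR livers. LYZ, the line CTSS (2 OF 2) and an MPEG1 line were at 0 in all 4 groups. The 6 stroma and vessel markers took 0.0136 to 0.0573% in young GR livers, against 0.00616 to 0.0132% in young control livers, and 0.00640 to 0.0176% in old GR livers, against 0.00251 to 0.0113% in old control livers. Only the old ranges overlapped, 1 of 4 tested was called higher at each age, and ACTA2 was at 0 in all 4 groups. The part of these values in the member changes was not tested.

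The 944 genes other than members with at least 10 counts per library on average were ranked by their likeness to the mean standardised log2(CPM + 10) of the 6 members above that level. Over the 20 livers, the 5 most alike were the unnamed gene Nfu_g_1_025591 (Pearson r = 0.98), OLA.3945 (0.976), HABP2, a hyaluronan-binding plasma protease (0.976), F7I, a coagulation factor VII-like gene (0.973), and the unnamed gene Nfu_g_1_021050 (0.968). The points fall in 4 groups, which all genes share. After the group means were subtracted, ATP5D (0.814), VTNA (0.804), RPS10 (0.802), HPDA (0.789) and OLA.3945 (0.786) came first. Between pairs of members, r after subtraction ran from -0.192 (C8G with C5) to 0.743 (C8B with C5). The libraries differ in depth, and these values are descriptions.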

How the data were processed

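BRB-seq libraries of killifish liver and muscle were demultiplexed, and some were read-sampled, by the authors. They then trimmed them (Trim Galore 0.6.7), mapped them to the GRZ assembly (HISAT2 2.2.1), assigned them to genes (featureCounts 2.0.1) and deposited whole-number UMI counts per gene (UMI-tools), not normalized. Groups were read from the column names of that table. 20 count columns (male liver) were not used. They fill 20406 lines, while gene names are given for 18529, so these columns may be shifted against the names. Such a shift was not tested. Each group had 5 libraries, 1 fish each, with totals of 28062 to 256671 counts in liver and 80573 to 221897 in muscle. All p-values rest on the spread between these libraries, which includes counting noise and, with thinned counts, the random thinning. The liver against muscle fit treated all its libraries as independent, with no term for fish. In 120 pairs of libraries within groups the lowest chi-square per degree of freedom was 1.46, so no pair agreed within counting noise.

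Each comparison was fitted across all genes with edgeR 4.0.16 in R 4.3.3 (TMM, at least 10 counts in total over the libraries compared, quasi-likelihood test with default settings, Benjamini-Hochberg adjusted p below 0.05), and the rows of the members were read from it. The default of this version is the legacy fit. The test gives no standard error, so each SE was computed as the unshrunk log2 coefficient, without sign, over the square root of the F statistic. CPM of liver are on TMM-scaled library sizes set over all 20 female livers, while each fit was scaled over the libraries it used. Ratios of mean CPM therefore need not match the log2 fold changes. C8 count ratios were compared by exact permutation (252 arrangements). Alternatives were RLE size factors, plain library sizes, thinning, DESeq2 1.42.0, filterByExpr, every gene with at least 1 count, genes over 1% of a library left out, the legacy option turned off (added after seeing the data), all 4 female liver groups in 1 fit, a replicate block, and leaving out each library. The fits were also run on simulated counts with equal numbers of genes raised and lowered. The loss of vitellogenin counts in GR livers was not simulated, so these runs do not speak to its effect on the fits. Python 3.11.15 made the tables and figures.

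The members and lists were chosen with earlier results of these data known. Named genes are all member lines, the other complement genes called at either age with up to 6 not called, and the 5 genes most like the members by each measure. OLA.3945, C7A and the CFHR3 lines were added after their values were seen.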

Additional observations from a re-analysis of the deposited data

Results flagged for a closer look

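Within the 27 combinations of a member and a group of 5 libraries that averaged at least 5 counts, 2 held a library far from the other 4. Such gaps turn up by chance in about 1 in 20 groups. CFI in old GR livers had a lowest library at 1381 CPM, with the next at 1606 CPM. C8A in old GR livers had a highest library at 781 CPM, with the next at 640 CPM.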

How the results depend on the processing

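C9, C5 and C8B passed the test in GR against control livers at both ages under every alternative run. The number of members called in young fish was 3 with thinned counts and 4 or 5 otherwise. In old against young control livers it was 0 with no minimum beyond 1 count, and 0 to 1 without any 1 library. In old against young GR livers it was 4 with filterByExpr, 3 with plain library sizes, DESeq2 or genes over 1% of a library left out, and 1 to 3 without any 1 library. The replicate numbers did not pair the samples (correlation of same-numbered deviations -0.034 to 0.171), and with a replicate block 5 members (young) and 6 (old) were called. With the legacy option turned off the numbers were also 5 and 6.

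Values that changed sign were not called in the first place, and the cause was not tested. For C8A in young fish the log2 fold change was -0.12 with RLE, -0.053 with thinning, -0.13 with DESeq2, -0.32 with filterByExpr and -0.060 to 0.14 without any 1 library. For C7 in old fish it was -0.19 with RLE, -0.23 with DESeq2, -0.15 with the replicate block and -0.17 to 0.27 without any 1 library. Between old and young control livers, C8G gave 0.074 (plain library sizes) and 0.14 (thinning), and C5 gave 0.17 (plain), 0.21 (thinning), 0.065 (filterByExpr) and -0.38 to 0.095 without any 1 library. C8B there gave -0.033 to 0.31, and C5 between GR livers -0.010 to 0.18. For the age by treatment term, C9 gave -0.17 (RLE), -0.25 (plain), -0.36 (thinning), -0.16 (DESeq2), -0.027 (filterByExpr), -0.002 (genes over 1% of a library left out) and -0.21 to 0.22 without any 1 library, and C5 gave -0.0056 with thinning. The C8B to C8G log2 ratio in old fish was -0.089 to 0.46 without any 1 library. Control livers, down to 28062 counts, limit what can be said of C8G, C7 and C6.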
